A study of Mus musculus with 20 samples.

Results

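The let-7 family in mouse serum was examined as 9 mature miRNAs out of 1915 mature miRNA names in the count table. They are mmu-let-7a-5p, mmu-let-7b-5p, mmu-let-7c-5p, mmu-let-7d-5p, mmu-let-7e-5p, mmu-let-7f-5p, mmu-let-7g-5p, mmu-let-7i-5p and mmu-miR-98-5p, written below without the mouse prefix and, where no other arm is meant, without the arm. The members were chosen by name, not by their values, and all 9 passed the filter on low counts that left 360 miRNAs for testing. Small RNA from the serum of female mice was sequenced in 20 libraries, 5 from each of 4 groups. The groups were normal mice aged 5 to 6 months (young normal), normal mice aged 21 to 22 months (old normal), and Ames dwarf mice of the same ages (young dwarf and old dwarf). All animals shared a heterogeneous Ames stock background, and the labels give the genotypes only as normal and dwarf. The labels do not say whether libraries came from separate mice, so the p-values given here measure the spread between libraries.

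Ames dwarf mice are small and long-lived and lack several pituitary hormones, growth hormone among them. A miRNA guides an Argonaute protein to messenger RNAs, mainly through its seed, a short stretch near its 5′ end, and lowers their translation and stability. The let-7 miRNAs were found as timing factors of development in the nematode. In mammals they accumulate as cells differentiate and repress genes of growth and proliferation, among them Hmga2, Lin28 and members of the Ras and insulin-like growth factor pathways. LIN28 proteins in turn bind let-7 precursors and block their maturation. In blood, let-7 miRNAs are carried in red cells, platelets and white cells and in vesicles and protein complexes outside cells.

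The mature sequences are shown because the members are so alike that the counts depend on single bases. They are the RefSeq entries on GRCm38.p6, written 5′ to 3′ with the seed, bases 2 to 8, in capitals. All 9 were 22 bases long and shared the seed GAGGUAG.
let-7a-5p: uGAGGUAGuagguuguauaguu
let-7b-5p: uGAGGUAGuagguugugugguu
let-7c-5p: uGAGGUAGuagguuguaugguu
let-7d-5p: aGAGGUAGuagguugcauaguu
let-7e-5p: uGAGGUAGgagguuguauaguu
let-7f-5p: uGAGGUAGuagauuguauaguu
let-7g-5p: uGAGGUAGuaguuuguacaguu
let-7i-5p: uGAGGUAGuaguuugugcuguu
miR-98-5p: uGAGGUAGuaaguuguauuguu

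The differences all lay outside the seed. Counted from 1 at the 5′ end, with the base of let-7a first, let-7c differed from let-7a by A19G, let-7e by U9G and let-7f by G12A. let-7b differed by A17G and A19G, let-7d by U1A and U16C, let-7g by G12U and U18C, and miR-98 by G11A and A19U. let-7i was the most distant from let-7a, with G12U, A17G, U18C and A19U. Of the 36 pairs of members, 4 differed by 1 base (let-7a with let-7c, let-7e and let-7f, and let-7b with let-7c), 10 by 2 bases and 22 by 3 or more. The authors' counting assigned reads among these names. The number of mismatches it allowed is not given in the sources used here, so reads may have passed between the members that differ by 1 base.

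The authors' miRDeep2 report, made on all libraries together, gives the commonest read of each hairpin, and for all 9 members this read was the start of the RefSeq sequence. It had the full 22 bases for let-7b, let-7c and let-7g. It was 1 base shorter at the 3′ end for let-7i and miR-98, and 2 bases shorter for let-7a, let-7d, let-7e and let-7f.

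The family is encoded by several clusters of hairpins, given here on GRCm38 with the overlapping genes of GENCODE M21. The largest cluster holds the hairpins of let-7d (chr13:48536012-48536114), let-7f-1 (chr13:48537829-48537917) and let-7a-1 (chr13:48538179-48538272) on the minus strand, all in exons of the long noncoding RNA 6720427I07Rik and spaced 1714 and 261 bases apart. The hairpins of let-7c-2 (chr15:85706603-85706697) and let-7b (chr15:85707319-85707403) lie in exons of the noncoding transcript Lncppara, 621 bases apart. let-7c-1 (chr16:77599657-77599750) lies in an intron of Mir99ahg, 656 bases from the hairpin of miR-99a. let-7e (chr17:17830352-17830444) lies in an intron of Spaca6, 367 bases from that of miR-125a. let-7a-2 (chr9:41536716-41536811) lies in an intron of the noncoding transcript 3110039I08Rik, which also holds the hairpins of miR-100 and miR-125b-1. let-7f-2 (chrX:151912346-151912428) and miR-98 (chrX:151913214-151913321) share an intron of the ubiquitin ligase gene Huwe1, 785 bases apart. let-7g (chr9:106178840-106178927) and let-7i (chr10:122985640-122985724) stand alone, the former in an intron of Wdr82 and the latter in an exon of the transcribed pseudogene D630033A02Rik. let-7a, let-7c and let-7f are each made from 2 hairpins, and the counts do not tell which hairpin a mature read came from.

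Libraries held 1343137 to 4710263 miRNA counts, and the 9 members together took 0.417% to 1.42% of them. These totals hold the reads of miR-486a-5p a second time under the name miR-486b-5p. Levels are given as CPM, counts scaled to a common library size with the TMM factors of edgeR, and values for single libraries are listed in the order of replicates 1 to 5. Since the members have equal length and each read stands for a whole molecule, levels were compared between members without a correction for length, although ligation and amplification can favour some sequences. Most of the signal came from a few members. let-7i, let-7g and let-7c made up 83.6% to 86.5% of the family's reads (median 85.4%). The mean level over all 20 libraries was 3843 CPM for let-7i, 1886 CPM for let-7g and 1632 CPM for let-7c. let-7d followed with 374 CPM, let-7a with 273 CPM, let-7b with 262 CPM and let-7f with 249.6 CPM. miR-98 reached 84.8 CPM, and let-7e, with 4 to 54 reads in a library, 9.94 CPM.

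The order was stable at some steps and not at others. let-7i was above let-7g, let-7c above let-7d, let-7d above let-7a, let-7f above miR-98 and miR-98 above let-7e in 20 of 20 libraries. let-7g exceeded let-7c in 13 libraries, let-7a exceeded let-7b in 14 and let-7b exceeded let-7f in 8, so these neighbours were not separated beyond the spread between libraries. The ratio of let-7i to let-7g ran from 1.61 to 3.08, whereas that of let-7d to let-7a ran only from 1.02 to 1.72.

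**Figure D1:**
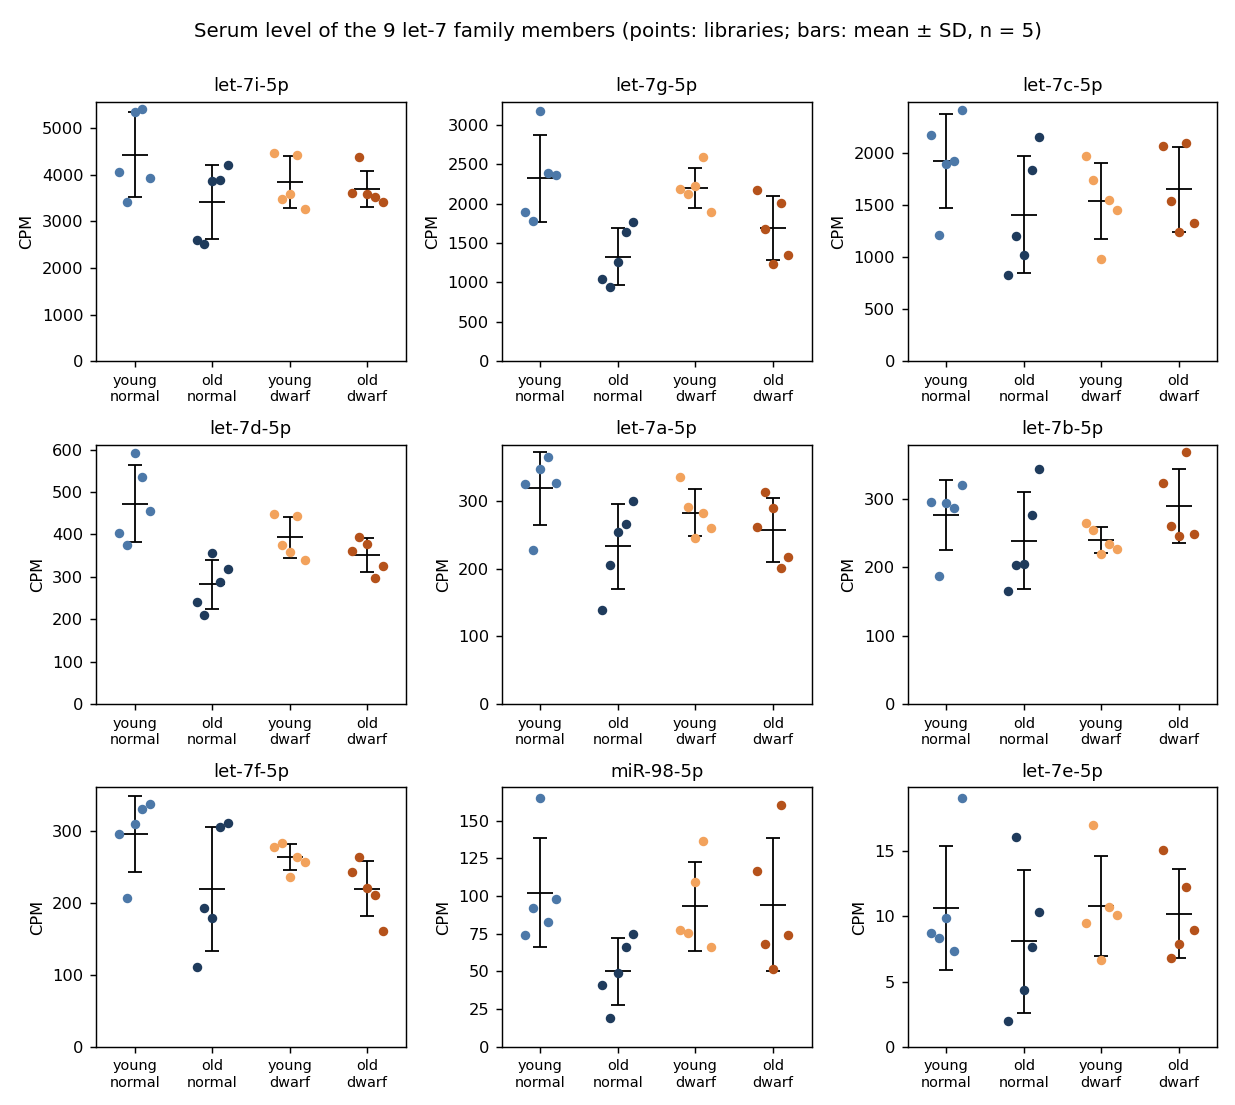
Level of each of the 9 let-7 members in CPM (vertical axes, linear and starting at 0) in the 4 groups. Each point is a library and bars are the mean ± SD of 5. let-7d and let-7g are the members whose old normal libraries (209.6 to 356 CPM and 939 to 1762 CPM) all lie below the young normal ones (376 to 593 CPM and 1779.7 to 3181 CPM).

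The first comparison asked how serum let-7 differed between old and young normal mice. let-7d and let-7g were lower in old normal serum, and the other 7 members had negative fold changes that did not pass the test. let-7d fell by 0.74 on the log2 scale and let-7g by 0.81. let-7d stood at 403, 376, 593, 534 and 456 CPM in the young normal libraries and at 239.9, 209.6, 356, 287 and 318 CPM in the old normal ones. Every old normal library was below every young normal library, with replicates 1 and 2 the lowest. The means were 472 ± 90.5 and 282 ± 58.7 CPM (SD, n = 5 in each group), and the log2 fold change was -0.74 ± 0.18 (SE, edgeR quasi-likelihood test, adjusted p = 0.0125).

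let-7g is the second most abundant member. It stood at 1897, 1779.7, 3181, 2396 and 2369.6 CPM in young normal and at 1041, 939, 1254, 1643 and 1762 CPM in old normal libraries. The groups again did not overlap, although the highest old normal value lay close to the lowest young normal one, and young normal replicate 3 stood well above its group. The means were 2325 ± 552 and 1328 ± 363 CPM, and the log2 fold change was -0.81 ± 0.22 (edgeR, adjusted p = 0.0168). Without young normal replicate 3 it was -0.68 and no longer passed (edgeR, adjusted p = 0.0560), and with each library left out in turn the adjusted p ran from 0.0123 to 0.0560. For let-7d it stayed between 0.00821 and 0.0428 with each of the 20 libraries left out.

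The fold change furthest from 0 belonged to miR-98, which is also among the least abundant members. It stood at 73.8, 92.1, 165, 82.8 and 98.0 CPM in young normal and 40.7, 18.8, 48.9, 66.5 and 74.8 CPM in old normal libraries. The groups overlapped only through old normal replicate 5, which reached just above the lowest young normal library. The log2 fold change was -1.03 ± 0.36 with an edgeR adjusted p of 0.0607, which misses the threshold of 0.05. The call depended on the processing: over 29 alternative fits the adjusted p ran from 0.0152 to 0.938. miR-98 passed with DESeq2 (0.0152), with library totals (0.0244), with precursor rows summed (0.0483) and in edgeR with only the 2 groups compared (0.0492). It also passed without young normal replicate 1 (edgeR, 0.0335) or 4 (0.0497), old normal replicate 4 (0.0474) or 5 (0.0447), or old dwarf replicate 3 (0.0480).

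let-7i, the most abundant member, stood at 4050.3, 3413, 5346, 5413 and 3921 CPM in young normal and at 2587, 2518, 3862, 3881 and 4196 CPM in old normal libraries. Only old normal replicates 1 and 2 lay below all young normal libraries, and the other 3 fell within their range. Its log2 fold change was -0.38 ± 0.19 (edgeR, adjusted p = 0.133). The remaining members had log2 fold changes of -0.45 (let-7a), -0.45 (let-7c), -0.44 (let-7e), -0.43 (let-7f) and -0.21 (let-7b), with edgeR adjusted p from 0.123 to 0.447.

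Across the family, 2 of 9 members were called lower and none higher, against 15.6% of all 360 miRNAs called in this comparison (10.6% lower and 5% higher). At an unadjusted p under 0.05, 4 of 9 members passed, against 38.3% of all miRNAs. Groups without overlap were found for 2 of 9 members and for 7.78% of all miRNAs. The median log2 fold change was -0.45 over the members and 0.00 over all miRNAs tested, of which 49.7% had a positive sign. The negative sign of all 9 members held under each scaling tried. Scaling by library totals moved the median of all miRNAs to -0.42 and that of the members to -0.88, and upper-quartile factors moved the former to 0.16. Of all counts in a library, the family took 0.856% to 1.42% in young normal and 0.417% to 0.776% in old normal mice, without overlap. These shares depend on miR-486a-5p, which averaged 260831 CPM in young normal and 392032 CPM in old normal libraries. Its reads are also counted as miR-486b-5p, and whether the shares overlap without this was not tested. The TMM-scaled sums of the 9 members, 7502 to 12137 CPM and 5159 to 9472 CPM, did overlap.

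**Figure D2:**
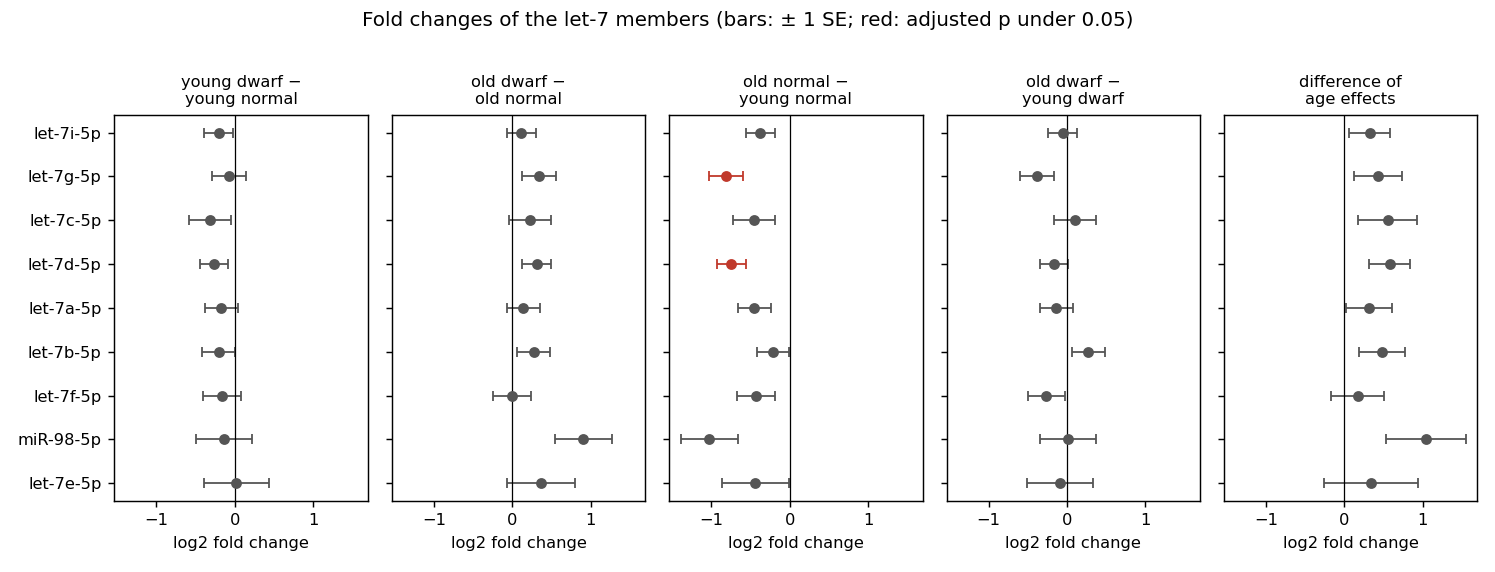
Log2 fold change (horizontal axes) of each member in the 4 comparisons and in the difference of the age effects, from 1 edgeR model over 20 libraries. Points are estimates, bars ± 1 SE, and red marks an adjusted p under 0.05. Red points appear for let-7d and let-7g in old against young normal mice, where all 9 members lie left of 0, as they do under each scaling tried.

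Serum is a mixture, and fewer cells shedding a miRNA cannot be told apart from less of it per cell. Markers of blood cells moved in the same comparison. The haemolysis index, the log2 ratio of the red-cell miRNA miR-451a to miR-23a-3p (a miRNA used as a reference because lysis changes it little), averaged 5.45 ± 0.61 in young normal and 4.30 ± 0.70 in old normal libraries. The difference was -1.15 (2-sided exact permutation test, p = 0.0238, adjusted over 4 comparisons p = 0.0476, n = 5 in each group). With each of the 10 libraries left out the adjusted exact p ran from 0.0317 to 0.0952, and it missed 0.05 in 9 of the 10 tests. Leaving out a library also raises the smallest exact p that the test allows, and the difference stayed between -1.35 and -0.85. With this index as a term in the edgeR model, no member was called. The log2 fold change was then -0.50 for let-7d (adjusted p = 0.272), -0.39 for let-7g (0.450) and -0.08 for miR-98 (0.938), and 1 of 360 miRNAs was called.

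Of the 5 red-cell markers, 4 had negative fold changes and 1 a positive one, with a median of -0.69, and only miR-451a was called. miR-451a averaged 36605 ± 13087 CPM in young normal and 18409 ± 5950 CPM in old normal serum, a log2 fold change of -0.99 (edgeR, adjusted p = 0.0198). The log2 fold changes of miR-144-5p and miR-144-3p, the arms of its neighbouring hairpin, were -0.75 (edgeR, adjusted p = 0.0607) and -0.69 (0.0696). miR-486a-5p, named after its values were seen because it dominates the list's sum, was the marker with the positive sign, at 0.59 (edgeR, adjusted p = 0.147). The summed red-cell list ran from 230763 to 526885 CPM in young normal and from 390367 to 581840 CPM in old normal libraries. The 4 platelet and myeloid markers summed to 20024 to 50465 CPM in young normal and 53371 to 74931 CPM in old normal libraries, without overlap. The lymphocyte markers miR-150-5p and miR-342-3p summed to 605 to 1880 CPM and 1570.5 to 4946 CPM. Both lymphocyte markers and 1 of 4 platelet and myeloid markers, miR-191-5p, were called higher, against 5% of all miRNAs. Of those 4, 3 had positive fold changes, among them miR-142a-5p at 0.57 (edgeR, adjusted p = 0.166), and miR-142a-3p stood at -0.21 (0.429). miR-191-5p and miR-142a-5p, with means of 22984 and 15881 CPM over the 20 libraries, made up most of the platelet and myeloid sum. All 5, 4 and 2 markers of these lists were above 0 in each of the 20 libraries.

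None of the liver and muscle markers was called in the same comparison, and the summed levels of both lists overlapped between the groups. The liver markers miR-122-5p and miR-192-5p summed to 3000.1 to 5995 CPM in young normal and 5645 to 12452 CPM in old normal libraries. Their log2 fold changes had opposite signs, -0.53 (edgeR, adjusted p = 0.754) and 0.99 (0.0824). The 3 muscle markers summed to 1061 to 7554 CPM in young normal and 314 to 3971 CPM in old normal libraries, and the 2 tested had log2 fold changes of -2.78 (miR-1a-3p, edgeR, adjusted p = 0.0694) and -1.48 (miR-133a-3p, 0.0962). Both liver markers and 1 of 3 muscle markers were above 0 in all 20 libraries. Over these libraries miR-192-5p averaged 9826 CPM, against 49.7 CPM for miR-122-5p, and so made up nearly all of the liver sum. miR-1a-3p averaged only 2.43 CPM, against 3205 CPM for miR-133a-3p. The part of blood cells, liver and muscle in the let-7 differences was not tested.

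The second comparison set the old dwarf libraries beside the old normal ones. All 9 members had positive fold changes, that of let-7f being 0.00 and turning to -0.02 with upper-quartile factors, and none passed the test, against 26.4% of all miRNAs called (16.1% higher). The median log2 fold change was 0.28 over the members and -0.06 over all miRNAs. At an unadjusted p under 0.05, miR-98 alone passed, against 45.3% of all miRNAs. DESeq2 called let-7d, let-7g and miR-98 higher, and it called 136 of all 360 miRNAs, 93 of them higher. No member had groups without overlap, against 12.5% of all miRNAs. miR-98 stood at 116, 68.5, 51.3, 160.3 and 74.0 CPM in the old dwarf libraries. Replicates 1 and 4 lay above the old normal range, and replicates 2, 3 and 5 within it. The log2 fold change was 0.90 ± 0.36 (edgeR, adjusted p = 0.0664).

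let-7d and let-7g, the members that were lower in old than in young normal serum, had mean levels between those groups in old dwarf mice. This was not particular to them, since every other member but let-7b also had an old dwarf mean between the 2 normal groups. let-7b averaged 290 CPM in old dwarf, 239 CPM in old normal and 277 CPM in young normal libraries. let-7d stood at 361, 394, 377, 296 and 324 CPM in the old dwarf libraries, with replicates 4 and 5 inside the old normal range. Its log2 fold change against old normal mice was 0.31 ± 0.18 (edgeR, adjusted p = 0.189), with a 95% interval from -0.07 to 0.70. let-7g stood at 2171, 1677, 1238, 2008 and 1349 CPM, so replicates 2, 3 and 5 overlapped the old normal libraries. Its log2 fold change was 0.35 ± 0.22 (edgeR, adjusted p = 0.218, 95% interval -0.10 to 0.80). The other members had smaller departures relative to their errors. Their log2 fold changes were 0.36 ± 0.43 (let-7e), 0.28 ± 0.21 (let-7b), 0.23 ± 0.27 (let-7c), 0.14 ± 0.21 (let-7a) and 0.12 ± 0.19 (let-7i), with edgeR adjusted p from 0.313 to 0.642. The comparison shares the old normal libraries with the preceding one, so the signs of the 2 sets of fold changes are not independent.

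The haemolysis index also differed between these groups. It averaged 5.38 ± 0.44 in old dwarf and was 1.08 higher than in old normal libraries (2-sided exact permutation test, p = 0.00794, the smallest that 5 against 5 libraries allow, adjusted p = 0.0317). With each of the 10 libraries left out the adjusted exact p ran from 0.0476 to 0.0635 and missed 0.05 in 5 of the 10 tests. The groups did not overlap (lowest old dwarf 4.90, highest old normal 4.83), so each of these tests gave the smallest exact p that the reduced groups allow. The misses thus do not show a weaker difference, which stayed between 0.78 and 1.21. With the index as a covariate, the log2 fold change of miR-98 was -0.01, that of let-7g -0.03 and that of let-7i -0.08. Those of let-7a (0.18), let-7b (0.15), let-7c (0.22) and let-7d (0.11) stayed positive. This fit called 0 of all 360 miRNAs, against 95 without the index. Of the 5 red-cell markers, 4 had positive fold changes, with a median of 0.57, and none was called. miR-451a stood at 0.73 (edgeR, adjusted p = 0.0550), and miR-486a-5p had the opposite sign, at -0.32 (0.417). The summed red-cell list ran from 304858 to 569810 CPM in old dwarf libraries, overlapping the old normal range. The platelet and myeloid markers summed to 19950 to 57459 CPM in old dwarf libraries, overlapping the old normal range. The lymphocyte markers summed to 657 to 1437 CPM, below all old normal libraries. The liver markers summed to 4062 to 20653 CPM and the muscle markers to 1975 to 5559 CPM in old dwarf libraries, both overlapping the old normal range, and none was called.

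Between young dwarf and young normal mice, no member differed past the threshold. let-7d stood at 447, 375, 359, 443 and 341 CPM and let-7g at 2184, 2122, 2219.9, 2595 and 1889 CPM in the young dwarf libraries, overlapping the young normal values. Fold changes were negative for 8 of 9 members, with a median of -0.17 against -0.04 over all miRNAs, but 6 of the 8 turned positive when libraries were scaled by their totals. The smallest edgeR adjusted p was 0.670, for let-7d at log2 -0.27 ± 0.18. The log2 fold changes of the others were -0.32 (let-7c), -0.21 (let-7i), -0.20 (let-7b), -0.17 (let-7a), -0.17 (let-7f), -0.14 (miR-98), -0.078 (let-7g) and 0.021 (let-7e), with edgeR adjusted p from 0.719 to 0.988. No member had an unadjusted p under 0.05, and 0% of all miRNAs were called (7.78% at the unadjusted threshold). Groups overlapped for every member, whereas 1.94% of all miRNAs had groups without overlap. Intervals still allowed sizeable differences, from -0.65 to 0.12 for let-7d and from -0.53 to 0.37 for let-7g.

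In old against young dwarf mice no member passed the test either. The log2 fold change was -0.38 ± 0.22 for let-7g (edgeR, adjusted p = 0.997, 95% interval -0.83 to 0.07) and -0.16 ± 0.18 for let-7d (0.997, -0.55 to 0.22). For miR-98 the value was 0.015 ± 0.36. The others were at 0.27 (let-7b), 0.10 (let-7c), -0.26 (let-7f), -0.14 (let-7a), -0.094 (let-7e) and -0.054 (let-7i), each with an edgeR adjusted p of 0.997. The members split into 3 positive and 6 negative fold changes, of which the 3 positive ones turned negative with library totals, with a median of -0.09, against 0.02 over all miRNAs. None was called and none had an unadjusted p under 0.05, against 0.556% and 3.89% of all miRNAs. No member had groups without overlap, against 1.67% of all miRNAs. The haemolysis index differed by -0.02 between these groups (exact permutation test, p = 0.960).

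Whether ageing affected serum let-7 differently in the 2 genotypes was tested as the difference of the age effects. The difference was positive for all 9 members, with a median of 0.42 against 0.01 over all miRNAs, and none was called, against 0.556% of all miRNAs. let-7d differed by log2 0.58 ± 0.26 (edgeR, unadjusted p = 0.0370, adjusted p = 0.277) and was the sole member under 0.05 before adjustment, against 15.8% of all miRNAs. DESeq2 gave 0.65 for let-7d with an adjusted p of 0.0316, the lowest of its 28 alternative fits, whose adjusted p ran up to 0.755. In all, 20 of 360 miRNAs were called by DESeq2 here, against 2 by edgeR. miR-98 differed by 1.04 ± 0.51 (edgeR, adjusted p = 0.310) and let-7g by 0.42 ± 0.30 (0.514). The differences were 0.55 (let-7c), 0.48 (let-7b), 0.34 (let-7e), 0.32 (let-7i), 0.31 (let-7a) and 0.17 (let-7f) for the rest, with edgeR adjusted p from 0.428 to 0.822. The members called in normal and not in dwarf mice are thus not shown to age differently in the edgeR test.

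**Figure D3:**
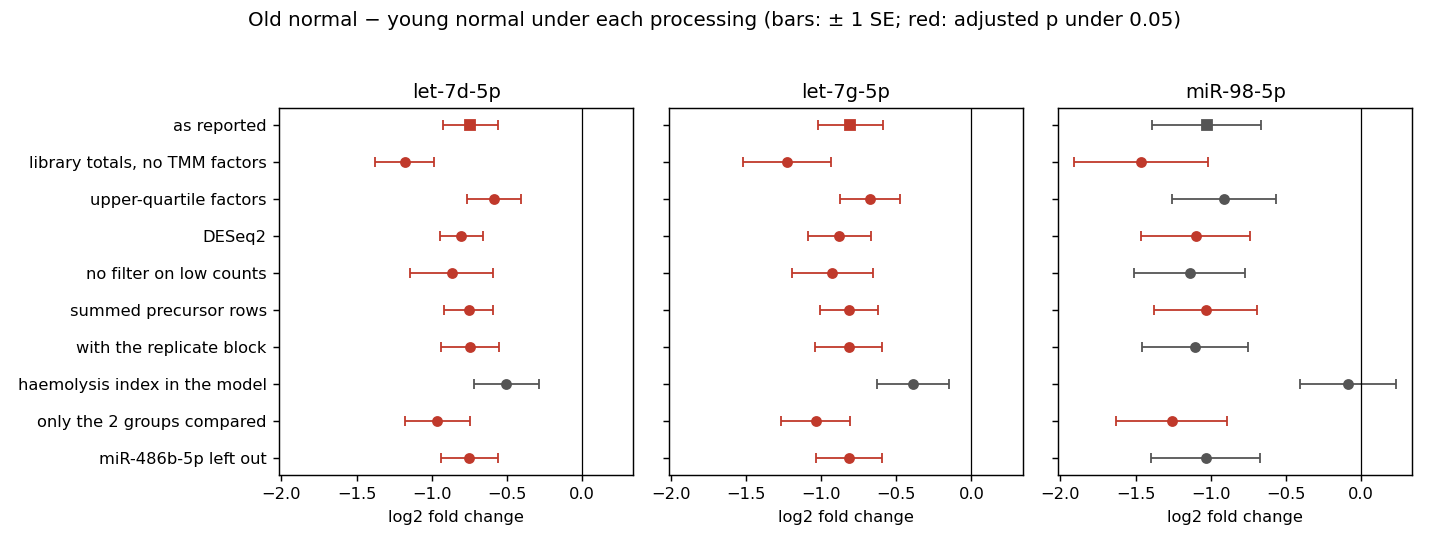
Log2 fold change of let-7d, let-7g and miR-98 in old against young normal mice (horizontal axes) under each processing choice (vertical axis). Points are estimates, bars ± 1 SE, and red marks an adjusted p under 0.05. let-7d and let-7g are red in every line but that with the haemolysis index in the model, where let-7d is at -0.50 and let-7g at -0.39.

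Each let-7 hairpin also yields a 3p or passenger arm, which is usually degraded and has another seed. Of 12 such names, 9 passed the filter, and those of let-7a-1 and let-7c-2 share all their reads. None was called in old against young normal, old against young dwarf or young dwarf against young normal mice. Between the old groups 1 of 9 was called lower in dwarf mice, against 10.3% of all miRNAs called lower there, and the median log2 fold change of the 9 was -0.31. This was let-7d-3p, shown because its arm is the one that outnumbered its 5p partner.
let-7d-3p: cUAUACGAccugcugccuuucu

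let-7d-3p stood at 968, 1272, 770.2, 990.5 and 847 CPM in old normal and at 397, 839, 695, 331 and 337 CPM in old dwarf libraries. The groups overlapped only through old dwarf replicate 2, which exceeded the lowest old normal library. The log2 fold change was -0.90 ± 0.30 (edgeR, adjusted p = 0.0353). In young normal libraries the arm stood at 988, 447, 548, 689.6 and 466 CPM, and against these it was log2 0.63 ± 0.30 in old normal mice (adjusted p = 0.130), opposite in sign to let-7d-5p.

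The ratio of the 2 arms of a hairpin does not depend on the scaling of a library. It was examined, after these values had been seen, for the 5 hairpins whose arms come from a single locus and were both tested (let-7b, let-7d, let-7e, let-7i and miR-98). For let-7d it was 2.45, 1.19, 0.925, 1.29 and 1.02 reads of 3p per read of 5p in young normal libraries. In old normal libraries it was 4.03, 6.07, 2.17, 3.46 and 2.66. Only young normal replicate 1 reached into the old normal range. The ratio was 1.56, 1.35, 0.817, 0.841 and 1.30 in young dwarf and 1.10, 2.13, 1.84, 1.12 and 1.04 in old dwarf libraries, all below the lowest old normal library.

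On the log2 scale the let-7d ratio was 1.42 higher in old than in young normal mice (2-sided exact permutation test, p = 0.0159) and differed by -1.32 between the old dwarf and old normal groups (exact p = 0.00794). Adjusted over the 20 arm tests both p-values were 0.159. A single test at 0.00794, the smallest exact p that 5 against 5 libraries allow, adjusts to 0.159 over 20 tests, so the design could not let it pass alone. For miR-98 the ratio was log2 1.62 higher in old than in young normal mice (exact permutation test, p = 0.0317, adjusted p = 0.198). Old normal replicates 1 and 2 held the highest values, 0.358 and 0.524 reads of 3p per read of 5p, against 0.0364 to 0.0921 in young normal libraries. The remaining old normal libraries, at 0.0780 to 0.0894, lay within that range. Reads were few: old normal replicate 2 had 21 of miR-98-5p, and miR-98-3p reached at most 14.6 CPM in any library. For let-7b the ratio differed by log2 -0.68 between the old dwarf and old normal groups (exact permutation test, p = 0.0397, adjusted p = 0.198). let-7i had 0.00551 to 0.0122 reads of 3p per read of 5p in all libraries. None of the comparisons of let-7e or let-7i had an exact p under 0.05.

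**Figure D4:**
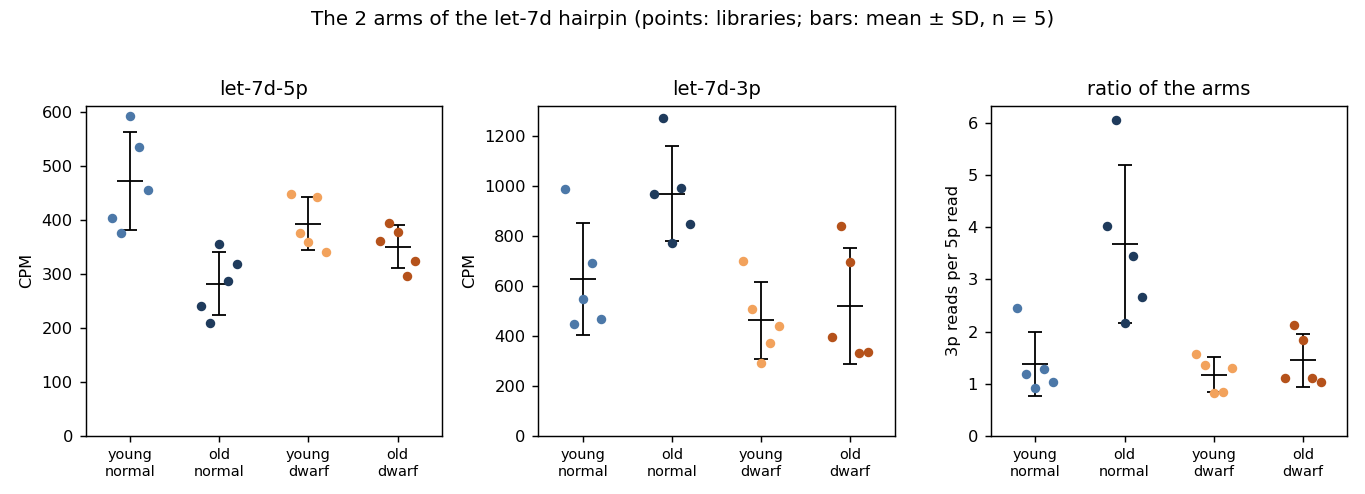
Levels of let-7d-5p and let-7d-3p in CPM and the ratio of 3p to 5p reads (vertical axes, linear and starting at 0) in the 4 groups. Each point is a library and bars are the mean ± SD of 5. The old normal libraries combine the lower 5p levels with 3p levels of 770.2 to 1272 CPM, and their ratios of 2.17 to 6.07 lie above those of all dwarf libraries.

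The miRNAs whose hairpins neighbour let-7 in the genome are miR-99a, miR-99b, miR-100, miR-125a and miR-125b, of which miR-125 shares its seed with the nematode timing miRNA lin-4. Between the old groups all 5 had positive fold changes, with a median of 0.69, and miR-125b-5p was called higher in dwarf mice (1 of 5, against 16.1% of all miRNAs). It stood at 87.5, 150.5, 77.1, 175 and 136 CPM in old normal and 481, 126, 159, 302 and 334 CPM in old dwarf libraries, with old dwarf replicates 2 and 3 inside the old normal range. The log2 fold change was 1.16 ± 0.43 (edgeR, adjusted p = 0.0484). In old against young normal mice none of the 5 was called, and the values were log2 -1.44 for miR-100-5p (adjusted p = 0.0653), -1.11 for miR-125b-5p (0.0696) and -0.86 for miR-99a-5p (0.118). miR-99b-5p had the opposite sign there, at 0.21.

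let-7j is a further name in the table whose sequence is that of let-7i with G8U, which falls in the seed, and 2 added bases.
let-7i-5p: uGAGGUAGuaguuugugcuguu
let-7j: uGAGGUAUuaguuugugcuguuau
let-7j had 15.6 to 24.5 reads (median 20.4) per 100 reads of let-7i in the 20 libraries, and it was not called in any comparison. Whether reads of let-7i were counted under let-7j was not tested. let-7k had at most 1.08 CPM in any library.

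Levels of the members rose and fell together across libraries to different degrees. Over the 36 pairs, Pearson's r of log2 CPM across the 20 libraries ran from 0.09 to 0.90 with a median of 0.62, and from -0.15 to 0.93 with group means subtracted. The pairs with the highest r were let-7b with let-7c (0.90), let-7a with let-7f (0.89), let-7d with let-7i (0.87) and let-7g with miR-98 (0.87). let-7b and let-7c neighbour each other on chromosome 15, and let-7a and let-7f on chromosome 13, whereas the other 2 pairs lie apart. Other neighbours had lower r: 0.81 for let-7a with let-7d and 0.64 for let-7d with let-7f on chromosome 13. For let-7f with miR-98, which share an intron of Huwe1, r was 0.44. let-7b with let-7c and let-7a with let-7f are also pairs that differ by 1 base. The remaining pairs that differ by 1 base had r 0.66 (let-7a with let-7c) and 0.40 (let-7a with let-7e). let-7e, the member with the fewest reads, had the lowest r. These values are descriptions, since the libraries share groups and a common scaling.

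Among the 351 other miRNAs tested, the one most like the mean log2 CPM of the 9 members over the 20 libraries was miR-26b-5p, with Pearson's r 0.91, Spearman's rho 0.92 and r 0.91 within groups. Next came miR-374b-5p and miR-374c-5p, which share all their reads (0.76), let-7j (0.74) and miR-26a-5p (0.73). The lowest r belonged to miR-342-3p (-0.85), a lymphocyte marker, miR-146a-5p (-0.81) and miR-5107-5p (-0.80). The red-cell marker miR-451a had r 0.61, or 0.30 within groups. In old against young normal mice miR-26b-5p had a log2 fold change of -0.85 ± 0.30 (edgeR, adjusted p = 0.0622), close in size to those of let-7d and let-7g. It was picked as the most alike over these same libraries, so a similar fold change is no separate sign of likeness.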

How the data were processed

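Serum small RNA of 20 libraries was analysed. Per the file headers, the authors' table is laid out as miRDeep2's quantifier writes it, and its whole-number read counts are listed once per mature name and precursor (2241 rows, 1915 names). RPM values made by the authors stand beside the counts and were not used. The authors' deposited miRDeep2 report has a score per hairpin, and only its commonest reads were used. The submitters' processing notes name Bowtie 0.12.8, bedtools, edgeR and GRCm38 (mm10). Their roles and the mapping settings are not given in the sources used here. All sample columns were read (0 left unused).

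A read is listed under each precursor it matches, so the row with the highest total was taken for each name. Counts were tested with edgeR 4.0.16 (limma 3.58.1, R 4.3.3): TMM factors, the default filter (minimum count 10), 1 coefficient for each of the 4 groups, the quasi-likelihood test, and Benjamini-Hochberg adjustment over all 360 miRNAs. An adjusted p under 0.05 is called. The model was checked on counts simulated for old against young normal mice. It called 53.8% of the 106 miRNAs given a log2 change of 1 in either direction, 93.4% of the 91 given 2 and 3.16% of the 158 unchanged. The share of changed miRNAs bears on the adjusted p, so these rates need not hold for the real comparison. Smaller changes were not simulated. Arm ratios (pseudocount 0.5) and the haemolysis index (pseudocount 1) were compared with 2-sided exact permutation tests in scipy 1.17.1. Standard errors and intervals cover the spread between libraries, and PCR reads without molecular identifiers are not independent molecules. Alternatives were library totals, upper-quartile factors, DESeq2 1.42.0, no filter, summed rows, a replicate block, the haemolysis index as a covariate, only the groups compared, and each library left out. The fit without miR-486b-5p and the arm ratios were added after the data were seen.

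The members, lists and rules were chosen with earlier results of these data known. All 9 members are named in each comparison, with up to 3 of each list by smallest p (miR-486a-5p is named beyond this rule), the 5 miRNAs most like the family's mean and the 3 least like it. Sequences come from RefSeq (GRCm38.p6), matched by name for all 9 members. Fragments of tRNA were not analysed here.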

Additional observations from a re-analysis of the deposited data

Results flagged for a closer look

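The libraries of each group were examined for one far from the rest, by the gap to its nearest neighbour as a share of the group's range (Dixon's test, critical value 0.71 for 5 libraries). Chance marks about 1 in 20 groups, and 5 of 72 groups were marked. Young normal replicate 2 was low for 3 members. Its log2 CPM was 7.84 for let-7a-5p (others 8.35 to 8.51), 7.56 for let-7b-5p (8.17 to 8.33) and 7.70 for let-7f-5p (8.21 to 8.40). Old dwarf replicate 2 was high for let-7i-5p, at 12.09 on the log2 CPM scale against 11.73 to 11.82 in the other old dwarf libraries. Young normal replicate 4 was low for the log2 ratio of let-7e-3p to let-7e-5p reads, at -2.92 against -1.11 to -0.69. let-7e has few reads in each library. No difference of age effects between genotypes passed the edgeR threshold for a member (0 of 9).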

How the results depend on the processing

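In old against young normal mice, 6 members were called lower with library totals, 5 with DESeq2 and 0 with the haemolysis index as a covariate, against 2 as reported, and 1 to 3 with each library left out. Calls over all 360 miRNAs moved too, to 106 (9 higher), 117 (39 higher) and 1, against 56 (18 higher). In old dwarf against old normal mice, 2 were called with library totals and 3 with DESeq2, against 0, and 0 to 1 with each library left out. Over all miRNAs these settings called 119 (78 higher) and 136 (93 higher), against 95 (58 higher). The single call was miR-98, without old normal replicate 5 (edgeR adjusted p 0.0494), old dwarf replicate 2 (0.0437) or old dwarf replicate 3 (0.0326). DESeq2 called 1 member, let-7d, for the difference of the age effects, among 20 of all miRNAs, against 2 in edgeR. Library totals moved the members' median to -0.88 in old against young normal, 0.59 in old dwarf against old normal and -0.43 in old against young dwarf mice. The cause was not tested.

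Signs turned only for fold changes that had not passed the test, among them 0.90 for miR-98 and 0.35 for let-7g between the old groups. With library totals these were, in young dwarf against young normal mice, let-7a 0.064, let-7b 0.027, let-7f 0.071, let-7g 0.16, let-7i 0.038 and miR-98 0.088, and in old against young dwarf mice let-7b -0.081, let-7c -0.20 and miR-98 -0.28. Upper-quartile factors gave -0.016 for let-7f in old dwarf against old normal, and 0.0072 for let-7e and 0.046 for let-7i in old against young dwarf mice, where miR-98 was -0.069 without a filter. With the haemolysis index let-7e was -0.025 in young dwarf against young normal mice, and let-7g was -0.030, let-7i -0.084 and miR-98 -0.0091 in old dwarf against old normal mice.

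With each library left out, fold changes in old against young dwarf mice ran from -0.027 to 0.21 (let-7c), -0.29 to 0.10 (let-7e), -0.12 to 0.0063 (let-7i) and -0.27 to 0.20 (miR-98). In young dwarf against young normal mice they ran from -0.22 to 0.34 (let-7e), -0.16 to 0.057 (let-7g) and -0.32 to 0.10 (miR-98), and for let-7f in old dwarf against old normal mice from -0.16 to 0.17. Log2 arm ratios ran from -0.30 to 0.048 (let-7d), -0.039 to 0.080 (let-7i) and -0.059 to 0.34 (miR-98) in young dwarf against young normal mice. They ran from -0.54 to 0.19 (let-7e) and -0.00042 to 0.28 (let-7i) in old dwarf against old normal, from -0.52 to 0.22 for let-7e in old against young normal, and from -0.65 to 0.20 for miR-98 in old against young dwarf mice. The haemolysis index difference ran from 0.78 to 1.21 in old dwarf against old normal and from -1.35 to -0.85 in old against young normal mice (adjusted exact p up to 0.0635 and 0.0952). It ran from -0.25 to 0.16 between the young and from -0.19 to 0.14 between the dwarf groups.

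Labels give the groups the same replicate numbers, but libraries with the same number did not deviate together (mean r -0.01, 3 of 20 libraries most like their own number), so the numbers were not taken as pairs. With the replicate block the same 2 members were called, let-7d at -0.74 and let-7g at -0.82 (edgeR adjusted p 0.0316 for both), and let-7e in young dwarf against young normal mice was -0.0046.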
